A study of Homo sapiens with 4 samples.

Results

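The TGF-beta and BMP pathway genes described here are 44 named ligands, receptors, SMAD proteins, inhibitors and ID target genes. They were taken from the gene table by symbol, and all 44 were found among its 19912 gene identifiers. The list was divided into a TGF-beta/activin arm of 18 genes, a BMP/ALK1 arm of 22 genes and 4 genes that serve both arms (SMAD4, SMAD7, SMURF1 and SMURF2).

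The cells were endothelial cells derived from H1, an established human embryonic stem cell line, and carried an eGFP reporter of GATA2, a transcription factor of endothelial and blood progenitors, for which they were positive. RNA was sequenced from 2 wild-type (WT) libraries and 2 libraries of a line lacking GFI1 (GFI1-KO), a repressor that acts while endothelium gives rise to blood. Both genotypes shared the H1 background and the eGFP-positive state, and the labels name no treatment or time point. The labels do not say whether the GFI1-KO line was 1 clone. They are also silent on whether libraries of 1 genotype were grown separately, and p-values therefore reflect the spread among these libraries alone, which may be technical.

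TGF-beta and BMP ligands bind paired type II and type I receptors at the cell surface, and the activated type I receptor phosphorylates SMAD transcription factors. TGFBR1 and ACVR1B act mainly through SMAD2 and SMAD3, whereas ACVRL1 (ALK1), ACVR1, BMPR1A and BMPR1B act mainly through SMAD1, SMAD5 and SMAD9; SMAD4 joins both sets, and ID1 and ID3 are direct BMP target genes. In endothelium ACVRL1 works with the co-receptor endoglin (ENG) on circulating BMP ligands, and mutations in either gene cause hereditary haemorrhagic telangiectasia.

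The promoters of the members give the sequence context for the values below. Of the 44 members, 38 had an entry in the RefSeq promoter table (GRCh38.p14), with 71 start sites in all. The 250 bases before each start were searched on both strands. The 6 members without an entry, ACVRL1 among them, were not searched for any motif. The SMAD palindrome GTCTAGAC was present in 0.182% of all 35116 windows and, among the members, in 1 window, that of SMAD6. The GC-rich motif GGCGCC, which BMP-activated SMADs can bind, was present in 16.4% of all windows and in 17 of the 71 member windows (23.9%). Neither motif contains the other. The windows of SMAD6 and of 3 of the members with the smallest unadjusted p are shown 5′ to 3′ on the strand of the gene, with the motif in capitals. Bases in annotated exons were left off the end of each window, except that the last 4 bases of the SMAD6 motif lie in one. The windows of BMPER and BMP4 lie inside the annotated spans of those genes, before internal start sites. SMAD6 lies at chr15:66701986-66702231, plus strand; BMPER at chr7:33904665-33904910, plus strand; TGFBI at chr5:136028738-136028894, plus strand; and BMP4 at chr14:53955051-53955300, minus strand.
SMAD6: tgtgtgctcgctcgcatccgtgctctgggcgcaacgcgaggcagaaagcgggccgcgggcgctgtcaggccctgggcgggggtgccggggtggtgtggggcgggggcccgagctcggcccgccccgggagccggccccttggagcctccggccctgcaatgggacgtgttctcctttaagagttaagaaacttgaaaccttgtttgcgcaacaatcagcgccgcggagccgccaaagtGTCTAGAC
BMPER: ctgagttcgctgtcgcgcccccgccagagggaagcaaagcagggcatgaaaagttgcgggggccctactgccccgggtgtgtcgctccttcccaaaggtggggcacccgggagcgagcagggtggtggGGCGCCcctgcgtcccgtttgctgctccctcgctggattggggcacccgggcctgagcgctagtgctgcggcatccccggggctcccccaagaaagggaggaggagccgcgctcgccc
TGFBI: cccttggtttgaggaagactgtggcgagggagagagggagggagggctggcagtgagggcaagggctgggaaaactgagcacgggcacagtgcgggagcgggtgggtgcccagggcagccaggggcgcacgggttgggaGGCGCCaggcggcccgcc
BMP4: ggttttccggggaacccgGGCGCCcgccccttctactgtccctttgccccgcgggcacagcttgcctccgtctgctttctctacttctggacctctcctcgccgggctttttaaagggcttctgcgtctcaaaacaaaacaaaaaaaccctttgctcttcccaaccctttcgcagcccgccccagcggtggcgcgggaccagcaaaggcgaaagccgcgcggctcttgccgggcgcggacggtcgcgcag
The motif began 12 bases before the start site in SMAD6, 122 in BMPER, 111 in TGFBI and 232 in BMP4. The other window of BMPER also held GGCGCC, 123 bases before its start, and 1 of the 3 windows of BMP4 held it. The single window of TGFBR3 held neither motif. A GFI1 motif, AATCACNGC, was in 1 member window, that of ACVR1 (0.906% of all windows), and its core AATC, which every AATCACNGC contains, was in 42 of 71 member windows and in 64.8% of all windows. The GATA motif AGATAA was in 4 member windows (5.63%) and in 9.17% of all windows. A match describes letters in a window and does not show that a factor binds there.

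The count of the targeted gene was lower in the GFI1-KO libraries but not absent. GFI1 was at 58.5 and 58.3 CPM (counts per 1000000, scaled to each library's normalised total) in WT and at 19.9 and 19.6 CPM in GFI1-KO, the former KO value resting on 3 counts. Its log2 fold change was -1.57 (SE 0.31, adjusted p = 0.0215, edgeR). Leaving out WT replicate 1 or 2 ended the call, with adjusted p-values of 0.137 and 0.096, as did leaving out GFI1-KO replicate 2 (0.271) and DESeq2 (0.596). GATA2, whose reporter marks the cells, was itself called lower, at 293 and 252 CPM in WT and 139 and 124 CPM in GFI1-KO (log2 fold change -1.09, SE 0.24, adjusted p = 0.0376). Over the alternatives its log2 fold change ran from -1.17 to -0.96. The call was absent with DESeq2 (adjusted p = 0.119), edgeR's newer dispersion form (0.0675), upper-quartile scaling (0.0518) and a minimum mean of 5 CPM (0.0677). It was also absent when WT replicate 1, WT replicate 2 or the deeper GFI1-KO library was left out. Both WT libraries and GFI1-KO replicate 2 held 2239214 to 2417410 counts, and GFI1-KO replicate 1 held 146584, where 3 counts correspond to 19.9 CPM against 1.26 to 1.34 CPM in the others. The labelled cell type was checked on 12 endothelial markers, none of which was at 0, and their summed level was 7070 and 7314 CPM in WT and 9248 and 10410 CPM in GFI1-KO. The sum of 11 mesenchyme and smooth muscle markers was 2161 to 3006 CPM in WT and 2252 to 2390 CPM in GFI1-KO, with COL1A2, a collagen gene of mesenchyme, at 1088 to 1302 CPM over the 4 libraries. The sum of 12 blood markers was 28.6 and 44.9 CPM in WT and 6.62 and 16.9 CPM in GFI1-KO. The 6.62 CPM was 1 count, of PF4, and the other blood markers had 0 counts in that shallow library. PTPRC and the globin genes HBE1, HBG1 and HBG2 were at 0 in every library. ITGA2B, a megakaryocyte and early blood marker, was at 7.59 and 19.3 CPM in WT and 0 and 1.78 CPM in GFI1-KO (adjusted p = 0.0893), and SPN (CD43) at 9.38 and 13.4 CPM against 0 and 4.01 CPM (adjusted p = 0.329). PF4, from the same list, went the other way, at 1.34 and 0 CPM in WT and 6.62 and 5.34 CPM in GFI1-KO. Its 6.62 CPM rested on 1 count (log2 fold change 2.94, edgeR adjusted p = 0.235). Of the 4 blood markers tested, 3 (ITGA2B, SPN and SPI1) lay lower in both GFI1-KO libraries, beside 22.7% of all genes tested. In GFI1-KO replicate 1 these 3 had 0 counts, which allows levels of up to 19.9 CPM. The other 1, PF4, lay higher in both, beside 18.6% of all genes tested. The sum of 6 pluripotency markers, NANOG being at 0, was 932 and 1028 CPM in WT and 768 and 769 CPM in GFI1-KO. LIN28A (462 to 635 CPM over the 4 libraries) and DNMT3B (245 to 387 CPM) held most of it, with POU5F1 at 0 to 5.46 CPM. The sum of 6 epithelial markers was 453 to 656 CPM in WT and 238 to 545 CPM in GFI1-KO. KRT8 (132 to 346 CPM) and KRT18 (79.5 to 243 CPM) held most of it, with EPCAM at 0 to 7.57 CPM. The part of these levels in the results below was not tested.

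Of the 44 members, the endothelial BMP receptor ACVRL1 rose in GFI1-KO, and the BMP modulator BMPER had lower values there without passing the test. The mean level of ACVRL1 was 91.6 ± 3.72 CPM for WT against 186 ± 8.05 CPM for GFI1-KO, and that of BMPER was 165 ± 32.0 CPM against 81.6 ± 6.44 CPM (SD, n = 2 libraries of each genotype). Of the 37 members with enough counts to be tested, 1 passed an adjusted p of 0.05 in edgeR's quasi-likelihood test (2.70%), beside 0.958% of the 11380 genes tested, of which 0.773% were higher and 0.185% lower. At an unadjusted p under 0.05 there were 5 members (13.5%), with ACVRL1, TGFBI, BMP4 and TGFBR3 higher and BMPER lower, beside 9.35% of all genes tested (5.81% higher and 3.54% lower). Over the 37 members the median log2 fold change was 0.17, beside -0.024 over all genes tested, with 28 values above 0 and 9 below.

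**Figure D1:**
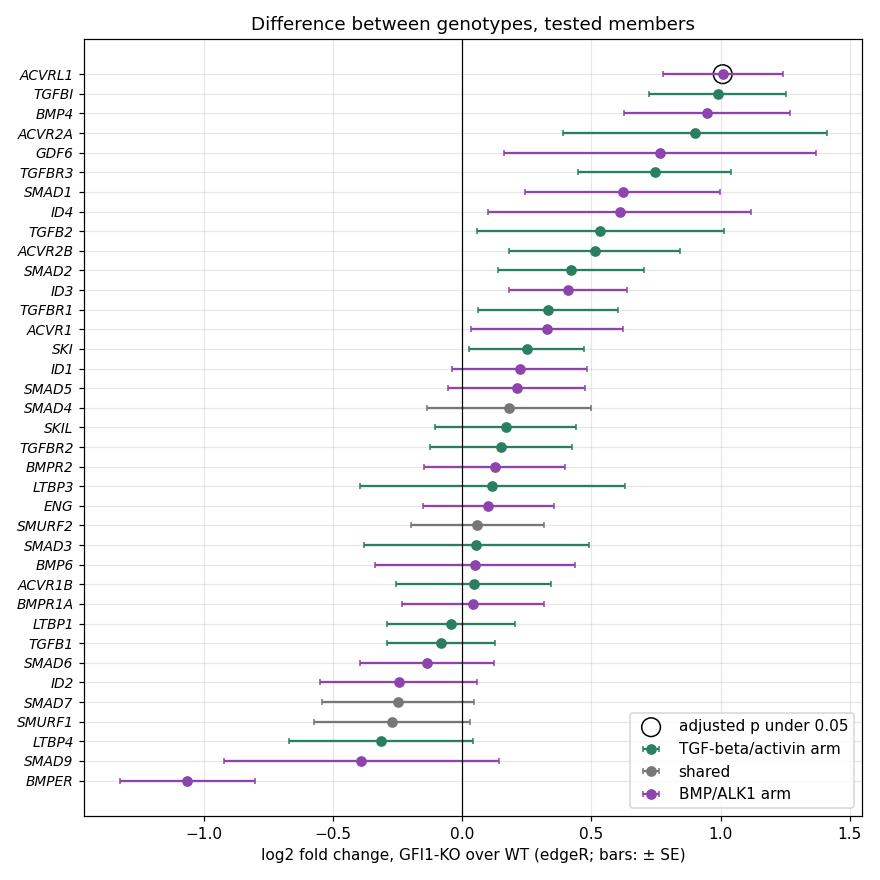
Log2 fold change (GFI1-KO over WT) of each tested member with its standard error, grouped by arm, from the edgeR fit over 2 WT and 2 GFI1-KO libraries. ACVRL1 at 1.01 is the member past the adjusted threshold, and BMPER at -1.06 lies lowest.

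Both GFI1-KO libraries lay above both WT libraries for 12 members: TGFB2, TGFBR3, ACVR2A, SMAD2, SKI, TGFBI, BMP4, ACVRL1, ACVR1, SMAD1, SMAD5 and ID3. That is 32.4% of the tested members, beside 18.6% of all genes tested. BMPER alone lay below in both, beside 22.7% of all genes, and 24 members overlapped between the genotypes. Because 8 members had 3 or fewer counts in GFI1-KO replicate 1, the comparison was also made with the deeper GFI1-KO replicate 2 only. That library lay above both WT libraries for 20 members, beside 33.9% of all genes, and below both for 4, beside 35.7%. The fit weights libraries by their depth, so for 9 members its sign differed from that of the plain means: TGFBR2, SMAD3, LTBP1, LTBP4, BMP6, BMPR2, ENG, SMAD9 and SMURF2. Fewer cells of a type and less RNA per cell cannot be told apart in these bulk libraries.

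**Figure D2:**
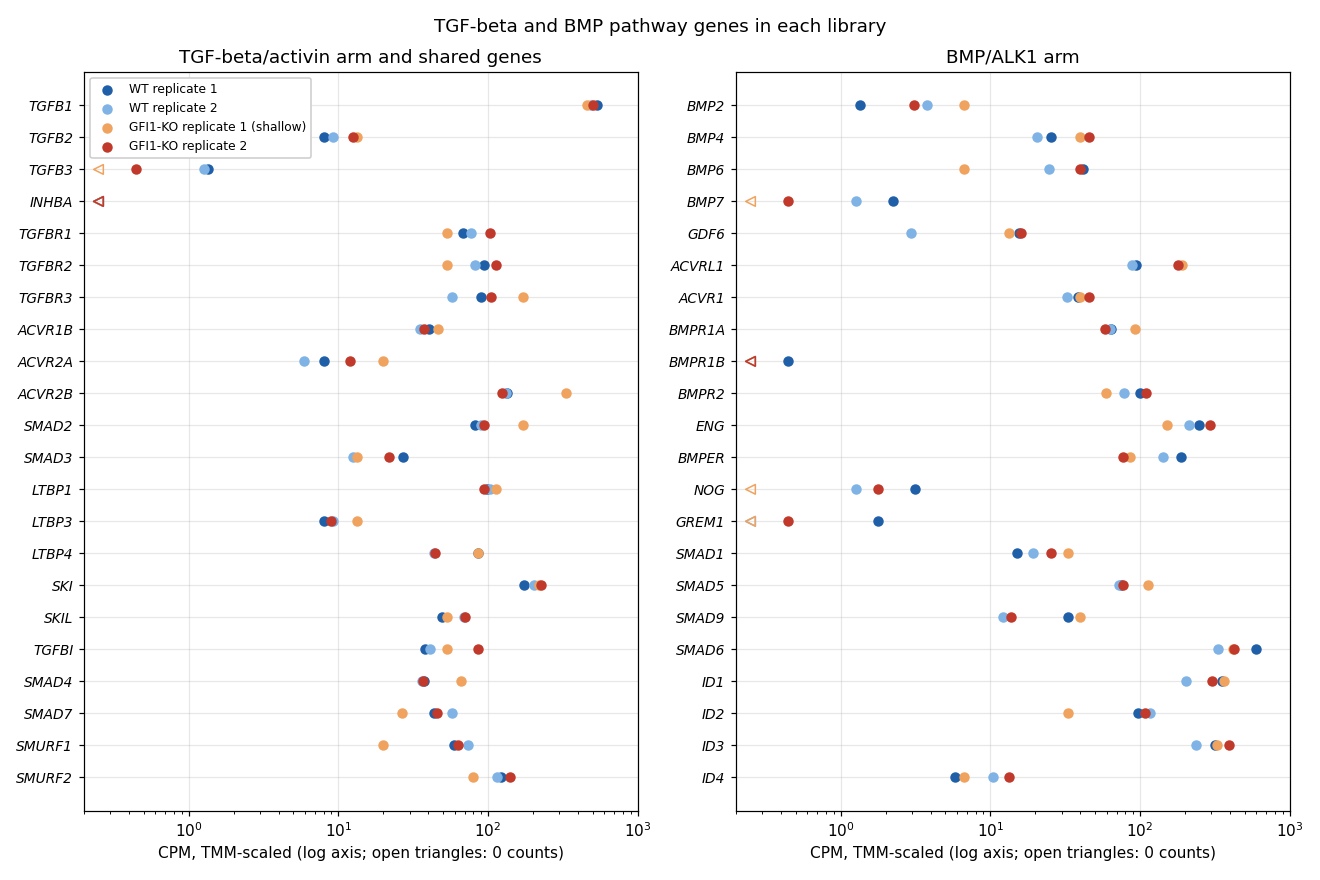
Level of each tested member in CPM (log axis) in the 2 WT and 2 GFI1-KO libraries, by arm and role. ACVRL1, at 94.2 and 89.0 CPM in WT and 192 and 181 CPM in GFI1-KO, shows separated genotypes with close replicates, while SMAD6, ID1 and SMAD9 show wide gaps between the WT libraries.

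In the TGF-beta/activin arm, 16 of 18 members were tested and 0 were called by edgeR, with 2 at an unadjusted p under 0.05, both higher (TGFBI and TGFBR3). The median log2 fold change of the arm was 0.21, with 13 values above 0 and 3 below, and the values ran from -0.31 to 0.99. The median was 0.37 without WT replicate 2, 0.37 without GFI1-KO replicate 2 and 0.10 with DESeq2. No ligand of the arm passed the test. TGFB1, the main TGF-beta ligand of endothelium, was at 536 and 491 CPM in WT and at 457 and 504 CPM in GFI1-KO. Its genotypes overlapped (log2 fold change -0.08, SE 0.21, adjusted p = 0.973). Some of its counts could come from HNRNPUL1, whose exons it overlaps, since the strand setting of the counting is not given in the sources used here. TGFB2, a ligand with roles in heart and vessel development, was at 8.04 and 9.23 CPM in WT and 13.2 and 12.5 CPM in GFI1-KO, the 13.2 CPM resting on 2 counts (log2 fold change 0.54, adjusted p = 0.858).

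Among the receptors of that arm, the co-receptor TGFBR3 (betaglycan, chr1:91680343-91906335, minus strand), which presents TGF-beta ligands and also binds BMPs and inhibins, had the highest mean level per median transcript length. It was at 90.2 and 57.5 CPM in WT and at 172 and 105 CPM in GFI1-KO. The genotypes did not overlap, yet the GFI1-KO libraries lay farther apart than the lower of them lay from WT. The log2 fold change was 0.74 (SE 0.30, adjusted p = 0.377). Without GFI1-KO replicate 2 it was 1.23 (adjusted p = 0.0499), and without GFI1-KO replicate 1 it was 0.52 (adjusted p = 0.47).

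The signalling receptors showed no call. TGFBR1, the type I receptor for TGF-beta, was at 68.3 and 77.2 CPM in WT and 53.0 and 104 CPM in GFI1-KO (log2 fold change 0.33, SE 0.27). TGFBR2, its type II partner, was at 94.2 and 82.2 CPM in WT and 53.0 and 113 CPM in GFI1-KO, so that the GFI1-KO libraries enclosed the WT values for both receptors. ACVR1B, the activin type I receptor, ranged from 35.2 to 46.4 CPM over the 4 libraries with overlapping genotypes. ACVR2A, an activin type II receptor, was at 8.04 and 5.87 CPM in WT and 19.9 and 12.02 CPM in GFI1-KO (log2 fold change 0.90, SE 0.51, adjusted p = 0.666). Its 19.9 CPM rested on 3 counts, and it shares exonic sequence with ORC4. ACVR2B, the related type II receptor, stood out in 1 library: it was at 134 and 132 CPM in WT, 331 CPM in GFI1-KO replicate 1 (50 counts) and 125 CPM in GFI1-KO replicate 2.

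Of the SMADs of that arm, SMAD2 was at 81.7 and 89.8 CPM in WT and 172 and 94.4 CPM in GFI1-KO (log2 fold change 0.42, SE 0.28, adjusted p = 0.77). As with ACVR2B, the high value came from GFI1-KO replicate 1. SMAD3 was at 27.2 and 12.6 CPM in WT and 13.2 and 21.8 CPM in GFI1-KO, and the WT libraries enclosed both GFI1-KO values. The latent TGF-beta binding proteins, which hold the ligand in the matrix, did not separate by genotype for LTBP1 (98.7 and 104 CPM for WT against 113 and 93.5 CPM for GFI1-KO) or LTBP3 (8.04 to 13.2 CPM over the 4 libraries). LTBP4 differed more within each genotype than between them, at 85.7 and 43.6 CPM in WT and 86.1 and 44.5 CPM in GFI1-KO. The nuclear co-repressors SKI and SKIL restrain SMAD activity. SKI was at 175 and 203 CPM in WT and 219 and 228 CPM in GFI1-KO without overlap (log2 fold change 0.25, SE 0.22, adjusted p = 0.858), and SKIL ranged from 49.6 to 70.3 CPM with overlap.

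TGFBI (chr5:136028895-136063818, plus strand), a TGF-beta-induced matrix protein, had the largest log2 fold change of the arm. It was at 38.0 and 41.1 CPM in WT (85 and 98 counts) and at 53.0 and 85.5 CPM in GFI1-KO (8 and 192 counts). Both GFI1-KO values lay above the WT pair, by an unequal margin. The means were 39.5 ± 2.24 CPM and 69.2 ± 23.0 CPM (SD, n = 2 each), and the log2 fold change of 0.99 (SE 0.26) had an adjusted p of 0.0997. It passed with no filter on low counts (adjusted p = 0.0348) and without GFI1-KO replicate 1 (log2 fold change 1.11, adjusted p = 0.00274), and without GFI1-KO replicate 2 it was 0.43 (adjusted p = 0.779).

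In the BMP/ALK1 arm, 17 of 22 members were tested, 1 rose and 0 fell, with 2 higher and 1 lower at an unadjusted p under 0.05. The median log2 fold change was 0.21, with 13 values above 0 and 4 below, over a range of -1.06 to 1.01. The median went to -0.0073 without WT replicate 2 and to 0.38 without WT replicate 1. Of the ligands, BMP4 (chr14:53949736-53958761, minus strand), which patterns mesoderm and promotes blood formation, was at 25.5 and 20.6 CPM in WT (57 and 49 counts) and 39.7 and 45.4 CPM in GFI1-KO (6 and 102 counts). The genotypes did not overlap, and the log2 fold change of 0.95 (SE 0.32) had an adjusted p of 0.237. BMP6, a ligand made by endothelium that regulates iron metabolism, was at 41.5 and 24.8 CPM in WT and at 6.62 CPM, a single count, and 39.6 CPM in GFI1-KO. GDF6, a ligand of the same family, was at 15.6 and 2.94 CPM in WT and 13.2 and 16.02 CPM in GFI1-KO, so its WT libraries bracketed 1 of the GFI1-KO values.

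ACVRL1 (ENSG00000139567, chr12:51906908-51923361, plus strand) rose in GFI1-KO and was the member called. The WT libraries held 211 and 212 of its counts and the GFI1-KO libraries 29 and 406, which correspond to 94.2, 89.0, 192 and 181 CPM. The replicates of each genotype lay close together and the genotypes were well apart. The log2 fold change was 1.01 (SE 0.23, adjusted p = 0.0493). Over 14 alternative analyses it ran from 0.98 to 1.08 with adjusted p-values from 0.00264 to 0.433, and 5 of the 14 kept it under 0.05. The adjusted p was 0.378 with DESeq2, 0.377 without WT replicate 1 and 0.433 without the other WT library. It was 0.0812 without GFI1-KO replicate 2.

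Compared per transcript length, ACVRL1 was the highest of the 6 type I receptors of both arms in all 4 libraries. Its level was 47.8 and 45.1 CPM per kilobase in WT and 97.5 and 91.7 CPM per kilobase in GFI1-KO with the median annotated transcript length, and 22.9, 21.6, 46.6 and 43.9 CPM per kilobase with the longest. The mean levels of the others, per kilobase of median length over the 4 libraries, were 22.2 CPM for ACVR1B, 13.6 for ACVR1, 12.97 for TGFBR1, 6.19 for BMPR1A and 0.058 for BMPR1B. A share within a library does not depend on the scaling between libraries. ACVRL1 took 211 of 684 type I receptor counts in WT replicate 1 (30.8%, exact Clopper-Pearson 95% interval 27.4 to 34.5) and 212 of 708 in WT replicate 2 (29.9%, 26.6 to 33.5). In GFI1-KO it took 29 of 64 (45.3%, 32.8 to 58.3) and 406 of 957 (42.4%, 39.3 to 45.6). The means of 30.4 ± 0.640% and 43.9 ± 2.04% (SD, n = 2 each) differed by 13.5 percentage points without overlap, and the exact two-sided permutation p was 0.333, the smallest that 2 against 2 libraries can give. This share and the other one below were chosen after the values were seen, and the intervals cover counting error only.

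Most of the endothelial markers also had higher values in GFI1-KO, and 1 of 12, CD34, was called (8.33%, beside 0.958% of all genes tested). Their median log2 fold change was 0.50, beside -0.024 over all genes tested. Of the 12, 9 (75.0%) lay higher in both GFI1-KO libraries than in both WT libraries, beside 18.6% of all genes tested. PECAM1 lay lower in both, at 443 and 388 CPM in WT and 344 and 324 CPM in GFI1-KO (log2 fold change -0.33, SE 0.21, adjusted p = 0.759). Per 1000 counts of these 12 markers, the WT libraries held 13.3 and 12.2 ACVRL1 counts and the GFI1-KO libraries 20.8 and 17.4. The means were 12.7 ± 0.822 and 19.1 ± 2.41 (SD, n = 2 each), with a ratio of 1.496 and no overlap between the genotypes. The exact two-sided permutation p was 0.333, the smallest that 2 against 2 libraries can give. ACVRL1 had already been called from these same counts, so the direction of this ratio is not independent of that call. The ratio was smaller than that of the mean CPM. KDR held the most counts of the 12 markers in every library, and CD34, also among them, was itself called higher. The part of endothelial content in the ACVRL1 difference was not tested.

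The other receptors of the arm were not called. ENG, the co-receptor of ACVRL1 with a mean level of 74.3 CPM per kilobase, was at 248 and 211 CPM in WT and 152 and 294 CPM in GFI1-KO. The GFI1-KO libraries lay on either side of WT, and the log2 fold change was 0.10 (SE 0.25, adjusted p = 0.97). ACVR1, a BMP type I receptor, was at 38.4 and 32.3 CPM in WT and 39.7 and 45.4 CPM in GFI1-KO (log2 fold change 0.33, SE 0.29). BMPR1A ranged from 58.8 to 92.7 CPM and BMPR2, the BMP type II receptor, from 59.6 to 109 CPM, both with overlapping genotypes.

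**Figure D3:**
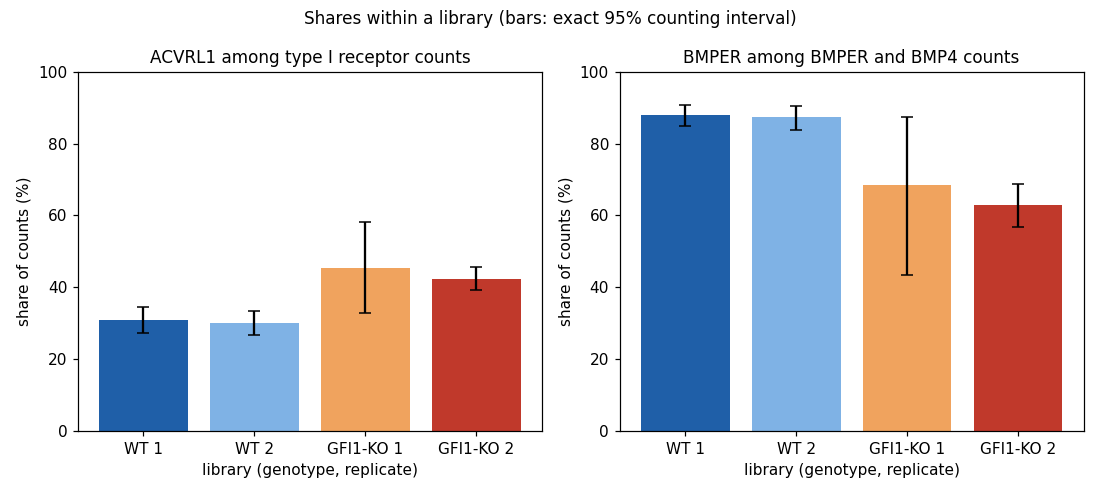
Share of ACVRL1 among the counts of 6 type I receptors and share of BMPER among the counts of BMPER and BMP4, in percent, in each library with exact 95% binomial intervals. ACVRL1 goes from about 30.4% in WT to 43.9% in GFI1-KO and BMPER from 87.7% to 65.7%, with wide intervals in GFI1-KO replicate 1.

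BMPER (ENSG00000164619, chr7:33904308-34156356, plus strand), a secreted BMP-binding protein that can inhibit or promote BMP signalling in endothelium, was the member with the lowest log2 fold change. The WT libraries held 421 and 340 of its counts and the GFI1-KO libraries 13 and 173, which correspond to 188, 143, 86.1 and 77.0 CPM. The WT libraries were both above the GFI1-KO libraries, which lay close together. The log2 fold change was -1.06 (SE 0.26) with an adjusted p of 0.068, so it was not called. Over the alternatives it ran from -1.23 to -0.84 with adjusted p-values from 0.00349 to 0.85, and it passed in 4 of 14, among them limma-voom (0.0457), no filter on low counts (0.0106) and the fit without GFI1-KO replicate 1 (0.00349). BMPER and BMP4, a ligand it binds, differed in opposite directions. BMPER made up 421 of 478 counts of the pair in WT replicate 1 (88.1%, 84.8 to 90.8) and 340 of 389 in WT replicate 2 (87.4%, 83.7 to 90.5). In GFI1-KO it made up 13 of 19 (68.4%, 43.4 to 87.4) and 173 of 275 (62.9%, 56.9 to 68.6). The mean share was 87.7 ± 0.475% in WT and 65.7 ± 3.90% in GFI1-KO (SD, n = 2 each), a difference of -22.1 percentage points with an exact two-sided permutation p of 0.333.

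The SMADs activated by BMP receptors, SMAD1 and SMAD5, had higher values in both GFI1-KO libraries without a call. SMAD1 was at 15.2 and 19.3 CPM in WT and 33.1 and 25.4 CPM in GFI1-KO (log2 fold change 0.62, SE 0.38, adjusted p = 0.707). SMAD5 was at 74.6 and 72.6 CPM in WT and 113 and 77.0 CPM in GFI1-KO (log2 fold change 0.21, SE 0.26). Both genes overlap annotated antisense transcripts, SMAD1-AS1 and SMAD5-AS1. SMAD9, the related SMAD, differed more within genotypes than between them, at 33.0 and 12.2 CPM in WT and 39.7 and 13.8 CPM in GFI1-KO.

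The genes commonly read as BMP output did not pass the test in either direction. SMAD6, the inhibitory SMAD that BMP signalling induces and the member whose window held GTCTAGAC, was at 597 and 332 CPM in WT and 417 and 425 CPM in GFI1-KO. Both GFI1-KO values lay between the WT values (log2 fold change -0.14, SE 0.26, adjusted p = 0.958). ID1, an inhibitor of helix-loop-helix factors with the highest mean level per median transcript length of all members (275 CPM per kilobase), was at 354 and 204 CPM in WT and 364 and 304 CPM in GFI1-KO (log2 fold change 0.22, SE 0.26, adjusted p = 0.909). ID3, its relative, was at 319 and 236 CPM in WT and 325 and 395 CPM in GFI1-KO. Here the genotypes did not overlap, but by only a few CPM, and the log2 fold change was 0.41 (SE 0.23, adjusted p = 0.653). ID2 was at 97.4 and 118 CPM in WT and 33.1 and 109 CPM in GFI1-KO, the 33.1 CPM resting on 5 counts, and ID4 ranged from 5.81 to 13.4 CPM.

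The WT libraries lay far apart for several of these output genes. SMAD6 was 1.80 times as high in WT replicate 1 as in WT replicate 2 (exact 95% counting interval 1.64 to 1.97), ID1 1.73 times (1.55 to 1.94) and ID3 1.35 times (1.21 to 1.51). SMAD9 was 2.72 times as high (1.75 to 4.33) and GDF6 5.32 times (2.33 to 14.2). Without WT replicate 1 the log2 fold change of SMAD6 was 0.35, and without WT replicate 2 that of ID1 was -0.10. In all, the counting interval of the ratio between the WT libraries excluded equality for 17 of 37 members (45.9%), beside 25.6% of all genes tested, 13 higher in replicate 1 and 4 higher in replicate 2 (SKI, SKIL, ID2 and SMAD7). These intervals hold counting error only and narrow as a gene's counts rise, and the members were not matched to the other genes on level. Over 3839 genes with at least 10 counts in GFI1-KO replicate 1, Spearman's rho of median transcript length with the ratio of WT replicate 1 to replicate 2 was -0.30, given as a description across genes that share the libraries. Among the members, ID1 and ID3, with median transcripts of 1114 and 1251 bases, were higher in WT replicate 1. ID2 and SMAD7, with medians of 1362 and 1278 bases and longest transcripts of 2041 and 4428 bases, were lower in it (ratios of 0.829 and 0.761). SMAD9, with a median of 5447 bases, was higher. These are examples from the 17 members, which were not ordered by length. The part of length in these gaps was not tested.

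**Figure D4:**
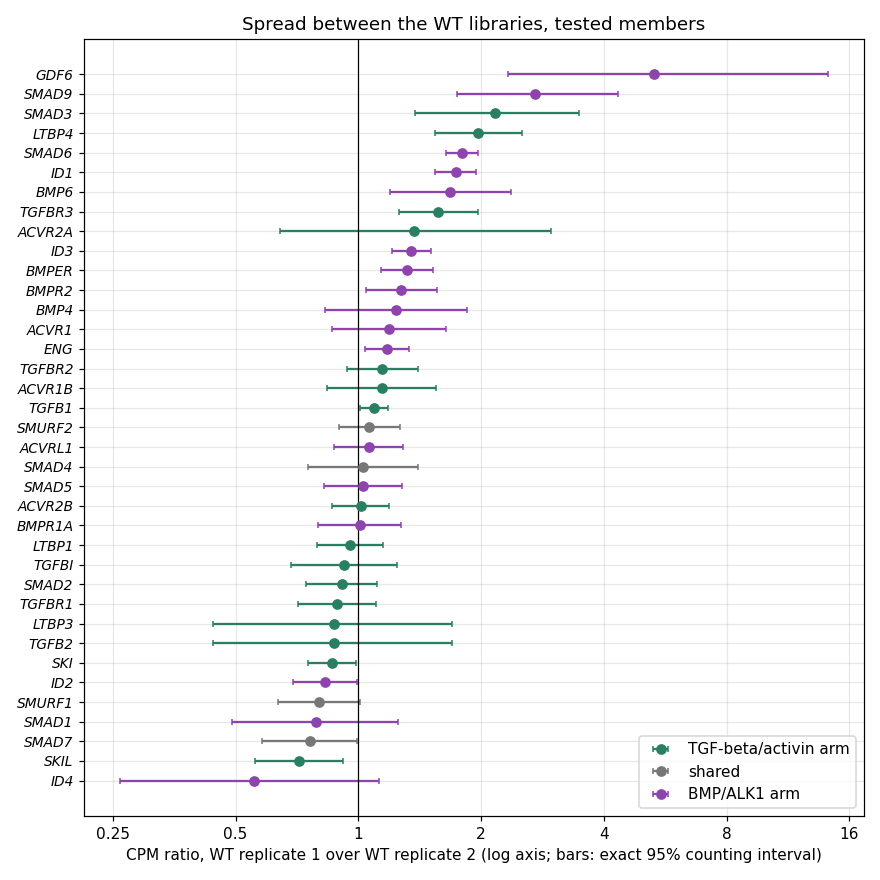
Ratio of WT replicate 1 to WT replicate 2 for each tested member on a log axis, with exact 95% counting intervals. For 17 of 37 members the interval excludes 1, among them SMAD6 at 1.80 and ID1 at 1.73, while ACVRL1 lies near 1.

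The GFI1-KO libraries differed beyond counting error for 8 of 37 members (21.6%), beside 10.5% of all genes tested. TGFBR3 (1.63, 1.04 to 2.45), ACVR2B (2.66, 1.93 to 3.60) and SMAD2 (1.83, 1.17 to 2.75) were higher in replicate 1. TGFBR2, BMP6, ENG (0.518, 0.326 to 0.784), ID2 (0.305, 0.0981 to 0.721) and SMURF1 were lower in it. ACVR2B and SMAD2 have long transcripts, with medians of 11821 and 10445 bases. The median ratio of replicate 1 to replicate 2 was 1.35 over 255 genes longer than 8 kilobases and 1.04 over 1081 genes shorter than 2 kilobases, and Spearman's rho of length with this ratio was 0.081 over the 3839 genes. BMPR2, with a median transcript of 9683 bases, had a ratio of 0.547 (0.247 to 1.05), on 9 counts in replicate 1. BMPR1A, with 11255 bases, had a ratio of 1.58 (0.840 to 2.74), and SMAD4, with 8495 bases, 1.79 (0.829 to 3.47). The intervals of BMPR2, BMPR1A and SMAD4 all include 1, and the part of length in these differences was not tested.

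The 4 genes shared by both arms gave 0 calls with edgeR and 0 at an unadjusted p under 0.05, beside 0.958% and 9.35% of all genes tested. None separated the genotypes, beside 18.6% of all genes above and 22.7% below in both GFI1-KO libraries. With only 4 genes, counts of 0 are near these shares. Their median log2 fold change was -0.094. SMAD4, the common partner SMAD, was at 37.5 and 36.5 CPM in WT and 66.2 and 36.9 CPM in GFI1-KO, so that only the shallow library stood apart. SMAD7, the inhibitory SMAD that blocks type I receptors of both arms, ranged from 43.8 to 57.5 CPM in WT and was at 26.5 and 45.8 CPM in GFI1-KO. SMURF1 and SMURF2 are ubiquitin ligases that act on SMADs and receptors. SMURF1 was at 58.9 and 73.4 CPM in WT and 19.9 and 62.8 CPM in GFI1-KO, the 19.9 CPM on 3 counts, and SMURF2 was at 123 and 115 CPM in WT and 79.5 and 141 CPM in GFI1-KO.

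The remaining 7 members were too scarce to be tested. INHBA, the activin A subunit, had 0 counts in all 4 libraries, which allows levels of up to 1.34, 1.26, 19.9 and 1.34 CPM. TGFB3, BMP2, BMP7 and the antagonists NOG and GREM1 had at most 9 counts in any library, and the type I receptor BMPR1B had 1 count in all. Of these, BMP2 had the most, with 3 and 9 counts in the WT libraries against 1 and 7 with GFI1 knocked out.

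A wider list of 77 further pathway genes was examined in the same fit. Of these, 43 were tested, including 6 of 24 ligands and 18 of 19 intracellular regulators, and 1 rose, 0 fell and 42 did not pass (2.33% called, beside 0.958% of all genes tested). At an unadjusted p under 0.05, 5 were higher and 3 lower (18.6%, beside 9.35%), and the median log2 fold change was -0.015. NEO1 (neogenin, chr15:73051710-73305206, plus strand), a receptor for the RGM co-receptors of BMPs, was the gene called. It was at 49.1 and 73.9 CPM in WT and 139 and 138 CPM in GFI1-KO, with the GFI1-KO libraries close together and well above WT. The log2 fold change was 1.17 (SE 0.27, adjusted p = 0.0471), and the call was lost without WT replicate 1 (0.762) or GFI1-KO replicate 2 (0.0902) and with DESeq2 (0.432), within a range of 0.000886 to 0.762 over 14 alternatives, of which 7 kept the call. RGMB, a BMP co-receptor that binds NEO1, was at 15.2 and 10.1 CPM in WT and 13.2 and 36.5 CPM in GFI1-KO (log2 fold change 1.36, SE 0.40, adjusted p = 0.15). The 13.2 CPM rested on 2 counts. The counting interval of the ratio of GFI1-KO replicate 1 to replicate 2, 0.043 to 1.35, included 1. FKBP1A, which holds type I receptors inactive, was at 420 and 296 CPM in WT and 636 and 572 CPM in GFI1-KO (log2 fold change 0.74, SE 0.23, adjusted p = 0.175). GDF15, a stress-induced ligand, was at 31.3 and 5.87 CPM in WT and 0 and 4.01 CPM in GFI1-KO (adjusted p = 0.254), so that its difference rested on WT replicate 1.

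**Figure D5:**
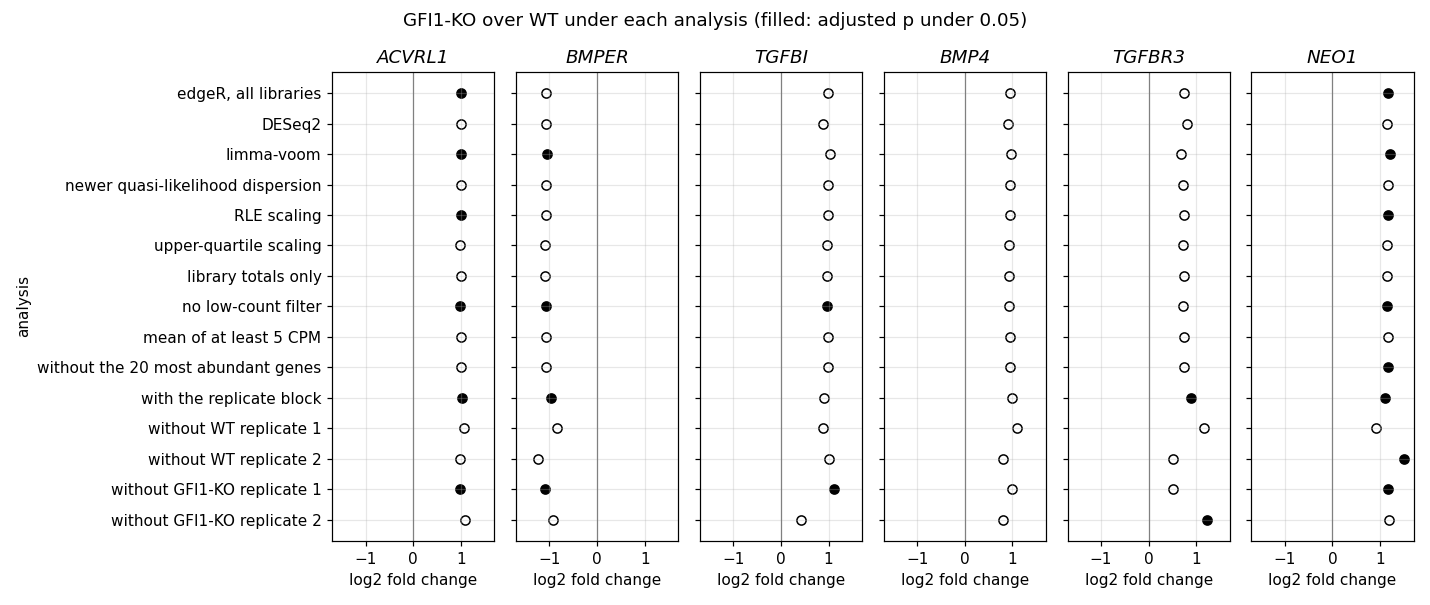
Log2 fold change (GFI1-KO over WT) of ACVRL1, BMPER, TGFBI, BMP4, TGFBR3 and NEO1 in the main analysis and under each alternative analysis. Points are filled where the adjusted p was under 0.05 and open elsewhere. The alternatives of ACVRL1 run from 0.98 to 1.08, with both filled and open points.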

How the data were processed

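RNA was taken up in Trizol and made into libraries with a TruSeq RNA kit from 1 µg of total RNA, per the labels' protocols. The submitters' processing notes name HISAT2 2.0.4, SAMtools 1.3.1, HTSeq 0.6.0, DESeq 1.18.1 and the build hg38 (GRCh38), with annotation and strand setting not given in the sources used here. The authors deposited raw read counts per Ensembl gene for 4 libraries. Of 19912 identifiers, 19902 matched GENCODE 29, which gave symbols, coordinates and transcript lengths.

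Counts were fitted with edgeR 4.0.16 (R 4.3.3; TMM, filterByExpr with a minimum count of 10, quasi-likelihood test with its older dispersion form), genotype only, with Benjamini-Hochberg adjustment over all 11380 genes tested and a threshold of 0.05. CPM are counts per 1000000 of the TMM-scaled total, and means are given with SD. DESeq2 1.42.0 and limma-voom (limma 3.58.1) were alternatives, as were other scalings and filters and leaving out each library. Scripts were tested on simulated data. Shares were compared with scipy 1.17.1.

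Library values are given for members past the adjusted or unadjusted threshold and the highest member per length of each role, and further members were added to account for the list. Members and lists were chosen with earlier results of these data known.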

Additional observations from a re-analysis of the deposited data

How the results depend on the processing

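Over all genes tested, 109 were called, against 28 with DESeq2, 58 with edgeR's newer dispersion form, 58 with upper-quartile scaling, 72 with library totals, 305 with no filter, 50 with a minimum mean of 5 CPM, and 62 to 373 when single libraries were left out. Of the members 1 was called, against 2 with limma-voom (ACVRL1 and BMPER), 3 with no filter, and 0 with DESeq2 (2 at an unadjusted p under 0.05) and 0 each with edgeR under newer dispersion, upper-quartile scaling, library totals, the 5 CPM minimum and without the 20 most abundant genes (5 at an unadjusted p under 0.05 in each). Leaving out single libraries gave 0 to 3 members: 0 without WT replicate 1 (6 at an unadjusted p under 0.05 in edgeR), 0 without WT replicate 2 (3), 3 without GFI1-KO replicate 1 and 2 without GFI1-KO replicate 2. Of the other pathway genes 1 was called, against 3 with no filter, 0 with DESeq2 (2 at an unadjusted p under 0.05), 0 with edgeR under newer dispersion, upper-quartile scaling, library totals and the 5 CPM minimum (7 or 8 at an unadjusted p under 0.05), and 0 to 4 without single libraries, 0 being without WT replicate 1 (4). The median of the TGF-beta/activin arm, 0.21, was 0.10 with DESeq2 and 0.19 to 0.37 without single libraries, and that of the BMP/ALK1 arm ran from -0.0073 to 0.38. The 13 members without overlap became 20 to 32 when 1 library was left out, where fewer samples make separation easier, and 12 with library totals, a check added after the data were seen. No share over all genes is given beside these counts, so they are not read as a trait of the members. With a replicate block, 327 genes, 3 members (ACVRL1, TGFBR3 and BMPER) and 2 other pathway genes were called, TGFBR3 with a log2 fold change of 0.90 and an adjusted p of 0.0229; same-numbered libraries deviated together with a correlation of 0.116 over 2 pairs, and the labels tie the numbers to no shared culture. Some log2 fold changes near 0 changed sign: with DESeq2 SMAD3 was -0.072 and SMURF2 -0.016, and without single libraries SMAD3 ran from -0.57 to 0.66, LTBP1 from -0.11 to 0.16, ENG from -0.58 to 0.36, SMAD6 from -0.49 to 0.35, ID1 from -0.10 to 0.69, SMAD4 from -0.0027 to 0.85 and SMURF2 from -0.57 to 0.24. The cause was not tested for these changes. Of 279 single-gene values over 20 genes, 231 kept their direction and side of the threshold. Depth limits GFI1-KO replicate 1, where the median tested gene had 6 counts against 86 to 91 in the others.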

Other observations

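Some BMP antagonists and decoys outside the members also differed between the WT libraries. BAMBI, a decoy receptor, was at 439 and 240 CPM in WT and 166 and 248 CPM in GFI1-KO, with a ratio between the WT libraries of 1.83 (exact 95% counting interval 1.65 to 2.03). SOST, a secreted BMP and WNT antagonist named here after its values were seen, was at 356 and 169 CPM in WT and 119 and 208 CPM in GFI1-KO, with a ratio of 2.10 (1.86 to 2.38). In both, WT replicate 1 was the highest of the 4 libraries.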
